A study of Mus musculus with 10 samples.

Results

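The keratins of simple epithelium and injury described here are 10 of the 31053 genes counted in single-cell RNA-sequencing libraries of mouse intestine: Krt7, Krt8, Krt18, Krt19, Krt20, Krt23, Krt5, Krt14, Krt36 and Krt80. They were chosen by gene symbol, and their UMIs (unique molecular identifiers, 1 per captured transcript molecule) were taken for every cell, class and library. ENR-organoids are crypts of the proximal small intestine cultured with EGF, Noggin and R-Spondin 1, and 3 libraries of them were measured. Hyper-organoids, also 3 libraries, were cultured with 8 components: the growth factors EGF, FGF2 and R-Spondin 1, the inhibitors LDN193189, Pexmetinib and GSK-3 Inhibitor XV, 500 µM of the histone deacetylase inhibitor VPA and 2 µM of the EZH2 inhibitor EPZ6438. The 2 libraries of -VE-organoids were named by the submitters for that medium without VPA and EPZ6438. Replicates 1 and 2 of the -VE- and Hyper-organoids were started from ENR-organoids, and replicate 3 of the ENR- and Hyper-organoids from primary crypts. Passages of replicates 1, 2 and 3 were 2, 7 and 3 for ENR-organoids and 1, 6 and 3 for Hyper-organoids. The -VE-organoids 1 and 2 were at passages 1 and 6. Colonic crypts were measured in 1 library from normal mice and 1 from mice given dextran sulfate sodium (DSS), an agent that injures the colonic epithelium. The labels give no strain, age or number of animals for any library and no time after DSS. Nothing in them says that replicates came from separate animals, so p-values measure the spread between these cultures, which also differ in passage.

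Keratins are the intermediate filament proteins of epithelial cells. A filament is built from pairs of 1 type I and 1 type II chain, and a chain without a partner is degraded. Simple epithelia such as the intestine use Krt8 (type II) with Krt18 and Krt19 (type I), with Krt7 (type II) and Krt20 (type I) added in particular cells, whereas Krt5 (type II) and Krt14 (type I) make the filaments of basal cells in stratified epithelia such as skin. Krt23 is a type I keratin of several glandular epithelia and their tumours, Krt36 is a type I keratin of the hair family, and Krt80 is a type II keratin described in many epithelia.

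The organoid libraries held 1983 to 4293 kept cells and 89124015 to 170019527 UMIs, and the colon libraries 1132 cells with 19906845 UMIs (normal) and 1933 cells with 32397122 UMIs (DSS). Any pair of libraries shared at most 5 cell barcodes. Markers of intestinal epithelium summed to 1755 to 2167 CPM (a gene's UMIs, scaled so that all libraries have the same total) in the organoid libraries. The leukocyte markers summed to at most 0.960 CPM in the organoids, against 233 CPM in the normal and 2713 CPM in the DSS colon library. The 9 markers of squamous epithelium summed to 888 CPM in the normal and 727 CPM in the DSS colon, mostly Sfn (868 and 679 CPM). Krt5 and Trp63, a transcription factor of stratified epithelia, had no UMI in either colon library, while Ly6d was at 2.21 and 29.0 CPM. These 9 markers also summed to 960 CPM in colon cluster 8, where 50.9% of cells held the leukocyte antigen Ptprc. That cluster, with 7 normal and 109 DSS cells, was led by genes of B and plasma cells (Cd79a, Ebf1 and Jchain among them). Its markers of intestinal epithelium summed to 188 CPM, so the squamous sum is not particular to epithelial cells. Which cells of the colon held Ly6d was not tested.

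Type I and type II members lie in the 2 keratin clusters of the mouse genome (GRCm38, GENCODE annotation). The type II genes are on chromosome 15: Krt80 at 101347444-101370162 (minus strand), Krt7 at 101411043-101430313 (plus), Krt5 at 101707070-101712898 (minus) and Krt8 at 101996698-102004482 (minus). Krt18, at 102028180-102032027 (plus), is the type I gene that lies there too, 23697 bases from Krt8, transcribed away from it and with 0 annotated genes in between. The other type I genes are on chromosome 11, all on the minus strand: Krt20 at 99428403-99438150, Krt23 at 99477974-99493137, Krt36 at 100102007-100105626, Krt19 at 100140810-100148665 and Krt14 at 100203162-100207548. Krt7, Krt8, Krt5 and Krt80 overlap annotated genes of the opposite strand, which the strand-aware counting of this 3′ assay keeps apart.

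The bases upstream of 4 members are shown because each pair of genes on a chromosome moved in opposite directions in the organoids: Krt8 and Krt18 on chromosome 15, and Krt20 and Krt23 on chromosome 11. They come from a set of RefSeq promoter sequences (GRCm38.p6) that held 8 of the 10 members, without Krt19 and Krt80. They are written 5′ to 3′ on the gene's strand, and end before the annotated first exon. The windows are chr15:102004483-102004592 (Krt8, minus), chr15:102027966-102028179 (Krt18, plus), chr11:99438154-99438403 (Krt20, minus) and chr11:99493138-99493370 (Krt23, minus). Capitals mark matches on either strand to 5 motifs. That of AP-1 was searched as TGANTCA. That of TEAD factors was GGAATG. The GC box was GGGCGG, the TATA box TATAAA, and the motif of CDX factors TTTATG.
Krt8: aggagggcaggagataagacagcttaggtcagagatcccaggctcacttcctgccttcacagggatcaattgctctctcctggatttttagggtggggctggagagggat
Krt18: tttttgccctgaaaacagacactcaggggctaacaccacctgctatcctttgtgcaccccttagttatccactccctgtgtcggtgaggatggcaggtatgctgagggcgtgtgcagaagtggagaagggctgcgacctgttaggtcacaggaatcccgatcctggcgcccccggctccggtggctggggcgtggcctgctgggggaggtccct
Krt20: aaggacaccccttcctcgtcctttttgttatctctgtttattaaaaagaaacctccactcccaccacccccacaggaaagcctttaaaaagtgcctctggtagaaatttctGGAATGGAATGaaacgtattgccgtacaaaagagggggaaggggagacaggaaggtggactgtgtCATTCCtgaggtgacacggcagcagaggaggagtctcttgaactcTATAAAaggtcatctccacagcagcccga
Krt23: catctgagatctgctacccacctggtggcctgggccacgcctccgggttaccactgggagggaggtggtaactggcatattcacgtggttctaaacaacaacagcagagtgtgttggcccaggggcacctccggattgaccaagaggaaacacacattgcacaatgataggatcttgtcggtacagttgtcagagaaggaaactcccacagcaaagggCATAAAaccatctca

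The Krt20 window held 3 matches to GGAATG, of which a pair overlaps by 1 G and the third is on the other strand, and 1 to TATAAA. The Krt23 window held 1 match to TTTATG on the opposite strand, and the Krt8 and Krt18 windows held none of the 5. Of 32851 promoter windows of 250 bases, 12.6% held GGAATG, 12.4% TATAAA, 10.8% TTTATG, 32.7% GGGCGG and 6.75% TGANTCA. The bases shown number 110 for Krt8, 214 for Krt18, 250 for Krt20 and 233 for Krt23, so only Krt20 has a window of that length. These matches are letters in a window, and no binding was measured.

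Together the 10 keratins took 0.254% to 0.357% of the UMIs of an organoid library, and 1.24% and 1.04% in the normal and DSS colon. In the organoids Krt8 had the highest CPM in every library, followed by Krt19 and Krt18 in the ENR- and -VE-organoids, with Krt18 above Krt19 in the 3 Hyper-organoid libraries. UMIs are counted at the transcript's 3′ end and were not divided by length. Krt7 came next, Krt23 and Krt20 were far lower, and Krt80, Krt36 and Krt14 were under 1 CPM. Krt5 had 3 UMIs in all 8 libraries.

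Hyper-organoids were first compared with ENR-organoids, the standard culture. Sums over all kept cells were tested with edgeR's quasi-likelihood test over 16037 genes, with levels as CPM after TMM scaling. A gene is said to have risen or fallen at an adjusted p under 0.05, and is called where the change was also at least 2-fold. Of the 8 keratins tested, 3 were called (Krt80 and Krt36 higher, Krt20 lower), against 22.9% of all genes, 18.2% higher and 4.75% lower. All 8 passed the adjusted p (5 higher, 3 lower), against 56.8% of all genes, and the 3 Hyper-organoid libraries did not overlap the 3 ENR-organoid libraries for any of the 8, as for 64.4% of all genes.

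Krt8, the more abundant type II keratin of these organoids, was at 1558, 1668 and 1883 CPM in ENR-organoids 1, 2 and 3 and at 1020.2, 1199 and 1448 CPM in Hyper-organoids 1, 2 and 3. It fell by 0.48 on the log2 scale (SE 0.13, adjusted p = 0.0125), all 3 Hyper-organoid libraries being below the lowest ENR-organoid library. Its type I partner Krt18 went the other way. It was at 499, 516 and 590.0 CPM in the ENR-organoids and 704, 714 and 845 CPM in the Hyper-organoids, a log2 change of 0.50 (SE 0.09, adjusted p = 0.00192). Krt19, a type I keratin with almost no tail domain that also pairs with Krt8, was at 955, 990.3 and 1197 CPM in the ENR-organoids and 468, 551 and 770.1 CPM in the Hyper-organoids. It fell by 0.81 on the log2 scale (SE 0.17, adjusted p = 0.00426).

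Krt7, the second type II chain of simple epithelia and more usual in ducts, rose. It was at 92.2, 102 and 109 CPM in the ENR-organoids and at 168, 165 and 214 CPM in the Hyper-organoids, a log2 change of 0.85 (SE 0.11, adjusted p = 0.000275). Krt23 was at 10.6, 12.5 and 11.2 CPM in the ENR-organoids and 25.5, 18.1 and 20.5 CPM in the Hyper-organoids, a log2 change of 0.90 (SE 0.13, adjusted p = 0.000485). Both genes rose by less than 2-fold.

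Krt20, the type I keratin of differentiated villus cells, was at 14.1, 13.8 and 10.1 CPM in ENR-organoids 1, 2 and 3 and at 1.99, 6.08 and 6.00 CPM in Hyper-organoids 1, 2 and 3. It fell by 1.44 on the log2 scale (SE 0.37, adjusted p = 0.0110), and Hyper-organoid replicate 1 lay well below the other two. Krt80 was at 0.145, 0.200 and 0.0716 CPM in the ENR-organoids and 0.692, 0.511 and 0.633 CPM in the Hyper-organoids, which is 6 to 24 UMIs a library against 60 to 102. Its log2 change was 2.10 (SE 0.42, adjusted p = 0.00328). Krt36 had 5 or 6 UMIs a library in the ENR-organoids and 36, 16 and 12 UMIs in Hyper-organoids 1, 2 and 3, a log2 change of 1.47 (SE 0.44, adjusted p = 0.0210). The Krt36 call was lost without ENR-organoid replicate 1 (log2 1.41, adjusted p = 0.0644), without ENR-organoid replicate 2 (1.37, 0.0739), without Hyper-organoid replicate 1 (1.01, 0.0676) and with DESeq2 (1.49, 0.0654).

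The basal keratins were at or near the detection limit. Krt14 had 1 to 13 UMIs in each of the 8 libraries, with 4 to 13 in the ENR-organoids, 3 and 1 in the -VE-organoids and 5 to 8 in the Hyper-organoids. Krt5 had at most 1 UMI a library, where 3 UMIs correspond to 0.0176 to 0.0337 CPM. Both were left out of the test for low counts in all 3 comparisons, so differences between groups were not tested.

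**Figure D1:**
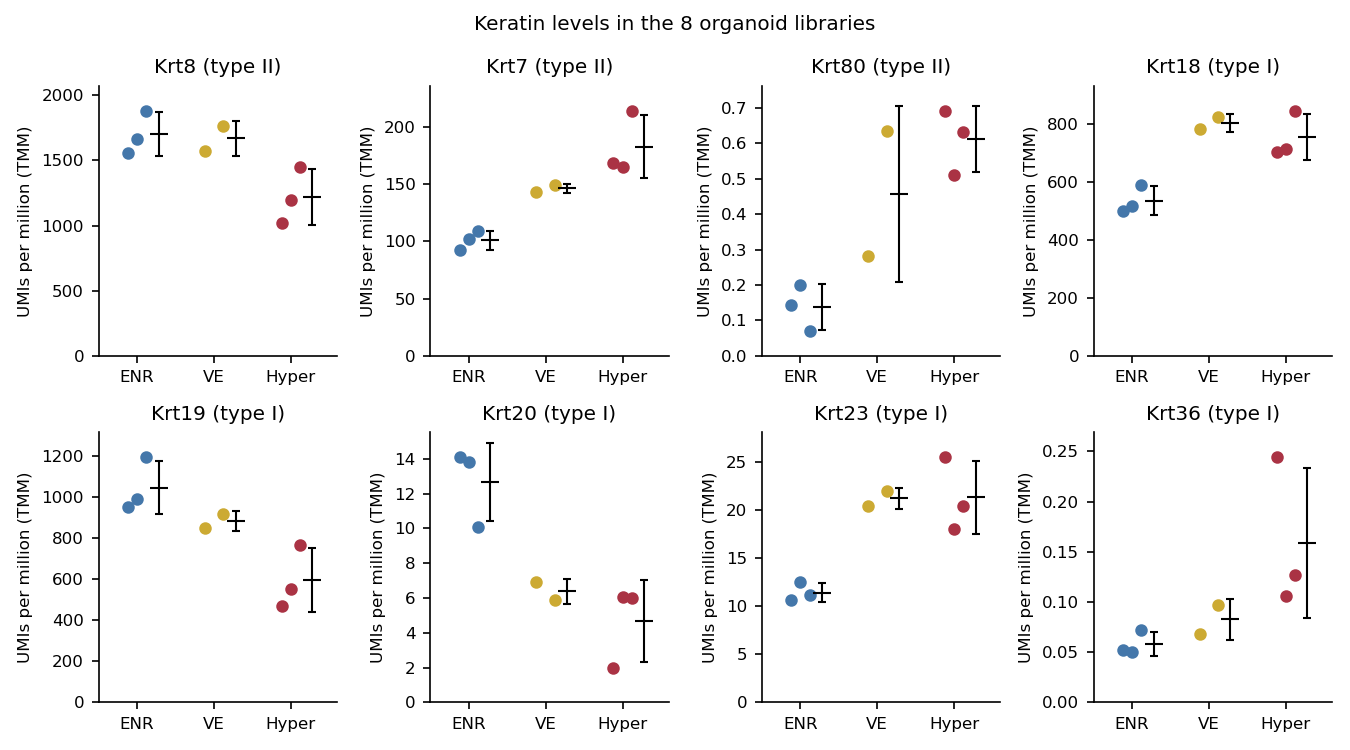
Levels of the 8 tested keratins in each organoid library, as CPM after TMM scaling (vertical axes from 0), for ENR-organoids, -VE-organoids (marked VE) and Hyper-organoids; each point is 1 library and the black bars are mean ± SD of 3, 2 and 3 libraries. Krt8, Krt19 and Krt20 are lower and Krt7, Krt18, Krt23, Krt36 and Krt80 higher in the 3 Hyper-organoid libraries than in any ENR-organoid library, and the -VE-organoids lie with the Hyper-organoids for Krt18 and Krt23 and with the ENR-organoids for Krt8.

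The -VE-organoids were compared with both other groups, to ask which differences were present without VPA and EPZ6438. They share libraries with the first comparison on each side. Against ENR-organoids, 0 of the 8 tested keratins were called, against 2.55% of all genes (1.35% called higher), and 3 rose at the adjusted p, against 7.88% of all genes that passed. For 6 of the 8 the groups did not overlap, as for 45.7% of all genes. Krt18 was at 780.5 and 824 CPM in -VE-organoids 1 and 2, above all 3 ENR-organoid libraries, a log2 change of 0.58 (SE 0.10, adjusted p = 0.0150). Krt23 was at 20.5 and 22.0 CPM, a log2 change of 0.89 (SE 0.14, adjusted p = 0.0104). Krt7 was at 143 and 149 CPM, a log2 change of 0.53 (SE 0.12, adjusted p = 0.0337).

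These 3 changes rested on few libraries. The adjusted p for Krt23 was 0.0850 without -VE-organoid replicate 2. That for Krt18 was 0.0585 without -VE-organoid replicate 1, 0.124 without -VE-organoid replicate 2 and 0.0653 without ENR-organoid replicate 2. That for Krt7 was between 0.0587 and 0.204 without any 1 of the 5 libraries compared, and 0.0568 with cells thinned to 10000 UMIs. Krt80, at 0.282 and 0.633 CPM in -VE-organoids 1 and 2, had a log2 difference of 1.69 (SE 0.46) that did not pass (adjusted p = 0.0615, and 0.0216 with DESeq2). Krt20, at 6.90 and 5.87 CPM, lay below the ENR-organoids with a log2 difference of -0.99 (SE 0.42, adjusted p = 0.199, and 0.0142 in a fit of the 2 groups alone), and Krt8 at 1574 and 1764 CPM overlapped them (-0.03, SE 0.14, adjusted p = 0.929). Krt19 also lay below the 3 ENR-organoid libraries in both -VE-organoids, but the difference did not pass (-0.24, SE 0.19, adjusted p = 0.50). Krt36, at 8 and 16 UMIs, did not pass either (0.55, SE 0.51, adjusted p = 0.564).

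Between Hyper- and -VE-organoids 0 of the 8 keratins were called, against 18.6% of all genes (2.51% called lower), and for 4 of the 8 the groups did not overlap, as for 67.0% of all genes. Krt8 fell by 0.45 (SE 0.14, adjusted p = 0.0306) and Krt19 fell by 0.57 (SE 0.19, adjusted p = 0.0384) on the log2 scale, 2 of 8 keratins against 47.6% of all genes. Krt19 was at 850.2 and 919 CPM in the -VE-organoids, above the 3 Hyper-organoid libraries. Krt8 no longer passed without Hyper-organoid replicate 1 (-0.33, adjusted p = 0.0570), without replicate 2 of the Hyper-organoids (-0.43, adjusted p = 0.0750) or without replicates 1 or 2 of the -VE-organoids (-0.52, adjusted p = 0.0650, and -0.35, adjusted p = 0.202). Krt19 was lost without replicates 1 or 2 of any of the 3 groups, with adjusted p between 0.0527 and 0.188. Neither passed in a fit of the 2 groups alone (adjusted p = 0.0517 for Krt8 and 0.0660 for Krt19) or with only genes of at least 1 CPM in 2 libraries (0.0585 and 0.0659). Krt7 did not pass (0.32, SE 0.12, adjusted p = 0.0579), but did with DESeq2 (0.0213), with the same 1 CPM filter (0.38, adjusted p = 0.0412) and with no filter on low counts (0.0405). For Krt18 (-0.09, SE 0.10, adjusted p = 0.497) and Krt23 (0.01, SE 0.14, adjusted p = 0.972) no difference between Hyper- and -VE-organoids passed. Nor did one pass for Krt20 (-0.45, SE 0.41, adjusted p = 0.397), Krt80 (0.40, SE 0.43, adjusted p = 0.469) or Krt36 (0.92, SE 0.46, adjusted p = 0.13), although the 3 Hyper-organoid libraries lay above both -VE-organoids for Krt36.

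The opposite changes of Krt8 and Krt18 were followed as a ratio within each library, which needs no scaling between libraries. There were 3.12, 3.23 and 3.19 Krt8 UMIs per Krt18 UMI in ENR-organoids 1, 2 and 3, 2.02 and 2.14 in -VE-organoids 1 and 2, and 1.45, 1.68 and 1.71 in Hyper-organoids 1, 2 and 3. The 3 groups did not overlap, with means of 3.18 ± 0.05 (SD, n = 3), 2.08 ± 0.09 (n = 2) and 1.61 ± 0.14 (n = 3). The log2 ratio differed by -0.98 between Hyper- and ENR-organoids. The exact two-sided permutation test gave p = 0.1, the smallest that 3 against 3 libraries allow, and 0.267 adjusted over 12 ratio tests, so this permutation test cannot reach 0.05 here. No model with a pooled spread was fitted to the ratio.

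The lower ratio was also present inside classes of cells. Within the SC class it was 2.33, 2.15 and 2.03 in the ENR-organoids, 1.87 and 1.91 in the -VE-organoids and 1.48, 1.67 and 1.73 in the Hyper-organoids, a log2 difference of -0.42 (Hyper- minus ENR-organoids) (exact permutation p = 0.1, again the smallest possible). Within enteroendocrine cells it was 3.09, 3.11 and 2.81 in the ENR-organoids and 1.53, 1.66 and 1.54 in the Hyper-organoids. The ratio of all type II to all type I members went from 1.124 ± 0.027 (n = 3) in ENR-organoids to 1.021 ± 0.034 (n = 3) in Hyper-organoids, and within the SC class the groups overlapped (exact permutation p = 0.2).

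**Figure D2:**
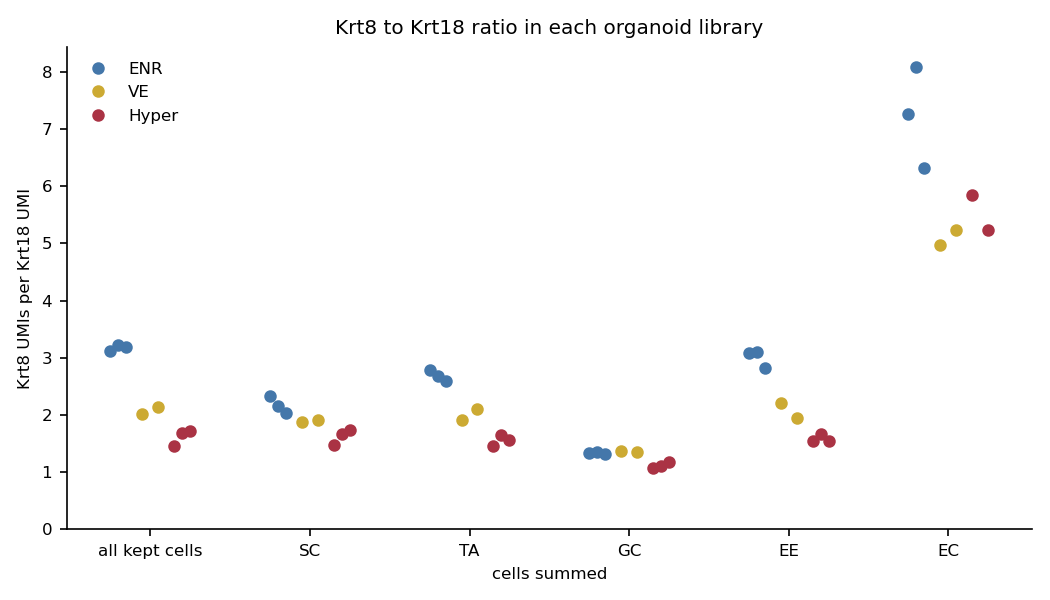
Krt8 UMIs per Krt18 UMI (vertical axis, linear from 0) in each organoid library, for all kept cells and for 5 classes of cells; each point is 1 library with at least 10 cells of the class, and VE marks -VE-organoids. In all kept cells the ENR-organoids lie at 3.12 to 3.23 and the Hyper-organoids at 1.45 to 1.71, and enterocytes (EC) lie above every other class, between 4.98 and 8.09.

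The deposited annotation divides the organoid cells into 9 classes. By the study's abbreviations these include transit amplifying cells (TA), enterocyte progenitors (EP), enterocytes (EC), goblet cells (GC), Paneth cells (PC) and enteroendocrine cells (EE). Summed enterocyte markers were at 16516 CPM in EC, enteroendocrine markers at 19722 CPM in EE, Paneth markers at 94810 CPM in PC and goblet markers at 19050 CPM in GC, although PC also held goblet markers at 16485 CPM. Stem-cell markers were at 1496 CPM in SC and 1491 CPM in TA, and transit amplifying markers at 1379 and 3622 CPM. These class values are not split by group. In whole libraries the stem-cell markers summed to 1090 to 1898 CPM in ENR-, 1441 to 2032 CPM in -VE- and 263 to 894 CPM in Hyper-organoids. Whether they separate SC from TA within a group was not tested. The markers Clu, Anxa1 and Ly6a of revival stem cells, a state described after irradiation, summed to 3813 CPM in RSC and to at most 55.9 CPM in any other class. The classes were made from the expression of all genes, keratins included, so differences between them are given without a test.

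RSC had the highest median of any class with at least 10 cells in a library for 6 of the 10 keratins. RSC is a small class, 70 cells in 5 libraries and none in the ENR-organoids, and only -VE-organoid replicate 2 (17 cells) and Hyper-organoids 2 (14 cells) and 3 (26 cells) held 10 or more. In those 3 libraries Krt8 was at 9113, 5452 and 6684 CPM, Krt19 at 5550.3, 2765 and 5336 CPM and Krt18 at 3765, 2887 and 2379 CPM. Krt7 was at 1194, 1044 and 1761 CPM, Krt23 at 230.3, 40.6 and 39.1 CPM and Krt80 at 13.1, 10.5 and 5.30 CPM. The RSC range lay above that of the next class without overlap for Krt7, Krt8, Krt18, Krt23 and Krt80, and overlapped the enterocytes for Krt19. The 9 markers of squamous epithelium summed to 406 CPM in RSC and to 33.0 to 119 CPM in the other classes, although the basal keratins Krt5 and Krt14 had no UMI in RSC. In whole organoid libraries this sum (61.5 to 99.0 CPM) was mostly Sfn (52.4 to 86.3 CPM). The part of Sfn in the RSC sum was not tested.

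Among the other classes, Krt8 and Krt19 were highest in enterocytes (medians of 2682 and 1982 CPM) and next in enterocyte progenitors (2106 and 1363 CPM), and lowest in Paneth cells (677 and 222 CPM). Krt18 was ordered differently, with 1058 CPM in goblet cells, 737 CPM in Paneth cells and the lowest median, 459 CPM, in enterocytes, although neighbouring classes overlapped. Krt7 was at 589 CPM in enteroendocrine cells and 312 CPM in goblet cells, whose ranges over 8 libraries (505 to 736 and 287 to 354 CPM) did not overlap. The medians of the 5 classes below them, 85.2 to 142 CPM, overlapped their neighbours.

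The Krt20 level was high in 3 classes. Its median was 93.3 CPM in enterocytes (59.5 to 198 CPM over 7 libraries) and 88.0 CPM in enteroendocrine cells (39.9 to 313 CPM over 8 libraries), and 41.7 CPM in RSC (18.1 to 114 CPM over 3 libraries), which overlapped both, against 0.805 CPM in SC and 0.625 CPM in TA. Krt23 was at 19.3 to 21.2 CPM in SC, goblet cells and TA, whose ranges overlapped, and at 4.93 CPM in enteroendocrine cells. Krt36 was under 1 CPM in every library with at least 10 cells of a class, RSC apart, where 1 library reached 1.32 CPM, and its highest median was 0.304 CPM, in goblet cells.

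**Figure D3:**
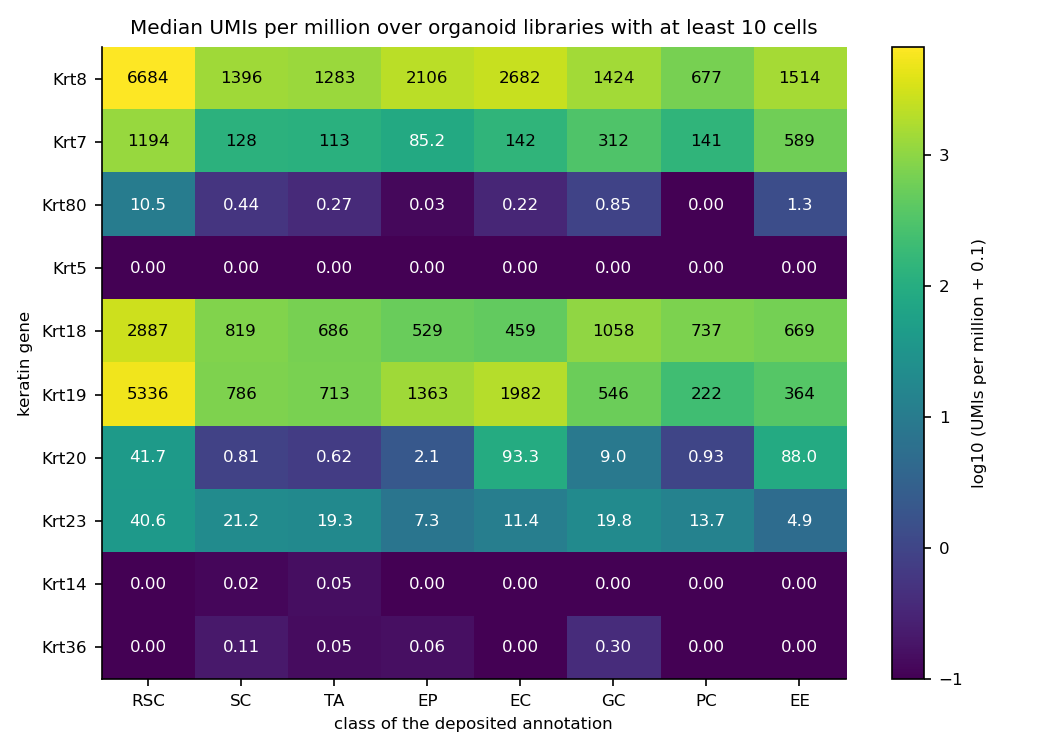
Median level of the 10 keratins (rows, type II above type I) in 8 classes of organoid cells (columns), as CPM over the libraries with at least 10 cells of the class; colour is the log10 of the level plus 0.1, and the printed number is the median. RSC (3 libraries) is the brightest column for Krt8, Krt18, Krt19 and Krt7, and Krt20 is bright in EC and EE.

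Keratins were also compared between single cells thinned to 10000 UMIs. Within the SC class the median Spearman correlation over 8 libraries was 0.409 for Krt8 with Krt19 (0.355 to 0.627), 0.335 for Krt8 with Krt18 (0.236 to 0.379), 0.166 for Krt18 with Krt19 and 0.111 for Krt8 with Krt7. Within TA it was 0.388 for Krt8 with Krt19 and 0.270 for Krt8 with Krt18. In Hyper-organoid replicate 1 the order was turned in TA (0.293 and 0.347) and the values were alike in SC (0.380 and 0.379). Cells of a library share its preparation and sparse counts lower such values, so they are given as a description over 228 to 1461 SC cells and 721 to 2113 TA cells a library. Across the 45 sums of a class in a library with at least 50 cells, the Pearson correlation of log2 (CPM + 1) was 0.78 for Krt8 with Krt19, -0.41 for Krt8 with Krt18 and 0.49 for Krt7 with Krt18.

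The Hyper- against ENR-organoid comparison was then made within each class that had at least 10 cells in 2 or more libraries of each group. It compares cells given the same class name. The study assigned stem cells of Hyper- and ENR-organoids to separate clusters and described TA cells as apart too, and the annotation used here holds the class names alone. A difference in SC or TA, and an interaction with SC as reference, is therefore also one between different clusters, and a change within 1 kind of cell cannot be told apart from it. In SC, 4 of 7 tested keratins rose (Krt7, Krt18, Krt20 and Krt23), 0 fell and 1 was called. Of all genes 49.5% passed and 18.0% were called. Krt7 was at 94.0, 104 and 97.4 CPM in SC of ENR-organoids and 189, 176 and 201 CPM in SC of Hyper-organoids, a log2 change of 0.83 (SE 0.07, adjusted p = 2.57e-05). Krt18 changed by 0.37 (SE 0.08, adjusted p = 0.0045) and Krt23 by 0.56 (SE 0.21, adjusted p = 0.0468), the latter lost when 1 library was left out in 6 cases: ENR-organoids 1 (0.115) or 3 (0.109), -VE-organoids 1 (0.0573) or 2 (0.0576) and Hyper-organoids 1 (0.0935) or 3 (0.0537), each value being the adjusted p. Krt8 (-0.04, SE 0.10, adjusted p = 0.783) and Krt19 (-0.20, SE 0.14, adjusted p = 0.265), which fell in the sum of all cells, did not pass in SC, nor did Krt80 (0.77, SE 0.43, adjusted p = 0.162).

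In TA, 6 of 7 keratins passed and 1 was called, against 55.8% of all genes that passed and 20.9% that were called. Krt7 (0.80), Krt18 (0.45), Krt23 (0.73) and Krt80 (2.04, SE 0.72, adjusted p = 0.0376) rose, and Krt8 (-0.34) and Krt19 (-0.74) fell. Krt20 did not pass (0.49, SE 0.45, adjusted p = 0.385). Krt19 was at 754, 724 and 777 CPM in TA of ENR-organoids and at 437, 472 and 547 CPM in TA of Hyper-organoids. Krt80 had 14 UMIs in TA of all ENR-organoid libraries together (0.0215 to 0.214 CPM) and 91 in TA of all Hyper-organoid libraries. The Krt80 call was lost without ENR-organoid replicates 1 (adjusted p = 0.111) or 3 (0.0950) and without Hyper-organoid replicates 1 (0.0919) or 3 (0.0545).

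In goblet cells 4 of 6 keratins fell and none rose, against 31.0% of all genes that passed, and 1 was called, against 13.3%. Krt8 fell by 0.65 (SE 0.12, adjusted p = 0.0017), Krt18 fell by 0.41 (SE 0.11, adjusted p = 0.0127), Krt19 fell by 0.50 (SE 0.14, adjusted p = 0.0153) and Krt20 fell by 1.90 (SE 0.51, adjusted p = 0.0138). Without ENR-organoid replicate 3, Krt18 (adjusted p = 0.0566), Krt19 (0.0656) and Krt20 (0.0620) no longer passed, nor did Krt19 without ENR-organoid replicate 1 (0.0545) or Hyper-organoid replicate 2 (0.0695). Krt7 stood at 287 to 307 CPM in the ENR-organoids and 331 to 354 CPM in the Hyper-organoids (0.09, SE 0.09, adjusted p = 0.502). With replicate number as a blocking factor, Krt23 also fell there, by 0.47 (adjusted p = 0.0338, against 0.0697 without).

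In enteroendocrine cells 2 of 6 keratins passed, against 14.0% of all genes, and both were called, against 7.4%. Krt20 was at 313, 169 and 71.9 CPM in the ENR-organoids and 56.1, 39.9 and 59.7 CPM in the Hyper-organoids, and fell by 1.74 (SE 0.36, adjusted p = 0.0085). Krt23 was at 0.777, 3.52 and 1.03 CPM in the ENR-organoids and 13.9, 7.89 and 6.34 CPM in the Hyper-organoids, a log2 change of 2.39 (SE 0.67, adjusted p = 0.0338). These levels rest on 7 UMIs in all ENR-organoid libraries together and 66 in all Hyper-organoid libraries. The Krt23 call was lost without ENR-organoid replicates 1 (adjusted p = 0.135) or 3 (0.0943) and without Hyper-organoid replicates 1 (0.118) or 2 (0.0558). Krt8 (-0.48, adjusted p = 0.0520) and Krt18 (0.44, adjusted p = 0.0873) passed when replicate number was a block (adjusted p = 0.0471 and 0.0400). Krt7 (-0.14, SE 0.14, adjusted p = 0.559) and Krt19 (0.38, SE 0.33, adjusted p = 0.504) did not pass.

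Enterocytes were rare in Hyper-organoids, with 58 cells in replicate 2, 21 in replicate 3 and 7 in replicate 1, which was left out of this class. In them 3 of 6 keratins rose, against 22.0% of all genes that passed, and all 3 were called, against 10.9%. Krt7 was at 71.1, 80.7 and 107 CPM in enterocytes of ENR-organoids 1, 2 and 3 and at 229 and 428 CPM in those of Hyper-organoids 2 and 3, a log2 change of 1.86 (SE 0.25, adjusted p = 0.0009). Krt20 was at 108, 93.3 and 67.2 CPM in the ENR-organoids and 198 and 166 CPM in the Hyper-organoids, a log2 change of 1.00 (SE 0.18, adjusted p = 0.0034). Krt18 changed by 1.04 (SE 0.28, adjusted p = 0.0250) but not without Hyper-organoid replicate 3 (0.40, adjusted p = 0.253), ENR-organoid replicate 1 (0.96, adjusted p = 0.0839) or ENR-organoid replicate 2 (0.93, adjusted p = 0.0782). With replicate number as a blocking factor, Krt8 (0.50, adjusted p = 0.0338), Krt19 (0.49, adjusted p = 0.0340) and Krt23 (0.71, adjusted p = 0.0438) rose in enterocytes too.

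**Figure D4:**
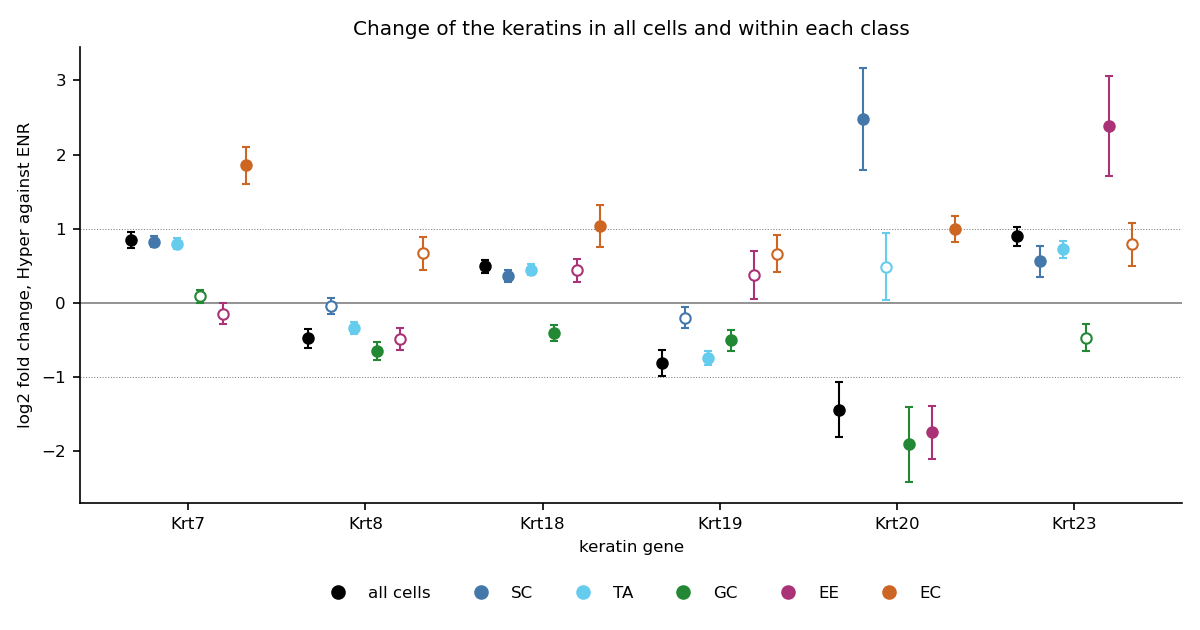
Log2 fold change of 6 keratins between Hyper- and ENR-organoids (vertical axis) in the sum of all cells and within 5 classes, from edgeR; bars are ± 1 SE, filled points have an adjusted p under 0.05, and dotted lines mark 2-fold. Krt20 lies at -1.44 in all cells but at 2.48 in SC and 1.00 in EC, and Krt7 is higher in SC, TA and EC and near 0 in GC and EE.

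Krt20 had a direction in the sum of all cells that was not that of each class. In SC it was at 0.232, 0.811 and 0.262 CPM in ENR-organoids 1, 2 and 3, at 0.645 and 0.799 CPM in -VE-organoids 1 and 2, and at 0.864, 3.31 and 4.05 CPM in Hyper-organoids 1, 2 and 3. The log2 change in SC was 2.48 (SE 0.69, adjusted p = 0.0142), and 2.13 (adjusted p = 0.0665) without ENR-organoid replicate 1. After thinning to 10000 UMIs, 0.627%, 2.53% and 3.30% of SC cells held a Krt20 UMI in Hyper-organoids 1, 2 and 3, against 0% to 0.633% in the ENR-organoids, and the share in Hyper-organoid replicate 1 (95% exact binomial interval 0.252% to 1.29%) lay inside the intervals of the ENR-organoids.

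The classes that carry Krt20 differed in size between the groups. Enterocytes were 11.8% ± 1.75 (SD, n = 3) of the cells in ENR-organoids, 5.96% ± 0.389 (n = 2) in -VE-organoids and 0.985% ± 0.702 (n = 3) in Hyper-organoids, and enterocyte progenitors 27.0%, 4.34% and 0.0976%. SC made up 12.2%, 26.2% and 42.1% of cells. Enterocytes gave a mean of 69.3% of all Krt20 UMIs in ENR-organoids, 52.7% in -VE-organoids and 31.5% in Hyper-organoids, where SC gave 19.8%. In a sum over cells the share of a class and the level in its cells cannot be told apart, and the part of class shares in the fall of Krt8, Krt19 and Krt20 was not tested.

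Whether the change differed between classes was tested as an interaction, with SC as the reference and the library as a block. At the adjusted p, 3 of 7 members passed for TA, against 14.5% of all genes, 6 of 7 for goblet cells, against 14.4%, 4 of 6 for enteroendocrine cells, against 11.8%, and 3 of 6 for enterocytes, against 10.9%, or 16 in all. The Krt7 change was lower than in SC in goblet cells (log2 difference -0.76, SE 0.08, adjusted p = 3.13e-05) and enteroendocrine cells (-1.02, SE 0.13, adjusted p = 0.000105), and higher in enterocytes (0.79, SE 0.17, adjusted p = 0.00791). The Krt18 change was lower in goblet cells than in SC by 0.80 (SE 0.08, adjusted p = 8.45e-06). The Krt8 change was lower than in SC in TA, goblet and enteroendocrine cells (-0.29, -0.63 and -0.48), and Krt20 was lower than in SC in all 4 classes (-1.85 in TA, -4.33 in goblet, -4.22 in enteroendocrine cells and -2.11 in enterocytes). Leaving out 1 library, tried after seeing the data, ended 6 of the 16. Among these were Krt20 in TA, lost without ENR-organoid replicates 1 (adjusted p = 0.0964) or 3 (0.109), and Krt8 in enteroendocrine cells, lost without ENR-organoid replicates 1 (0.0859) or 3 (0.133) and Hyper-organoid replicates 2 (0.102) or 3 (0.0909).

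The other comparisons were made within classes too. Between -VE- and ENR-organoids 4 member and class pairs passed: Krt7 (0.51, adjusted p = 0.020), Krt18 (0.59, adjusted p = 0.0122) and Krt23 (0.69, adjusted p = 0.0290) in TA, and Krt7 in enterocyte progenitors (0.57, adjusted p = 0.0411). No keratin passed in SC, goblet, Paneth or enteroendocrine cells or enterocytes, where 1.54%, 2.23%, 1.26%, 0.199% and 8.09% of all genes did and 0.503%, 1.14%, 1.01%, 0.19% and 3.34% were called. Nearest the threshold in SC were Krt7 (0.38, SE 0.08, adjusted p = 0.0542) and Krt18 (0.41, SE 0.09, adjusted p = 0.0605). Whether the difference between -VE- and ENR-organoids varied between classes was not tested. In TA 3.14% of all genes passed and in enterocyte progenitors 1.2%. None of the 4 was called, against 1.03% and 0.453% of all genes, and each was lost without -VE-organoid replicate 2 (adjusted p of 0.142, 0.0877, 0.185 and 0.215). Krt7 was also lost without -VE-organoid replicate 1 or ENR-organoid replicates 1 or 2, in TA (0.0528 to 0.0634) and in enterocyte progenitors (0.0852 to 0.162). Krt23 in TA was lost without any 1 of the 5 libraries compared, with adjusted p from 0.0750 up to the value above. Between Hyper- and -VE-organoids 9 pairs passed, in SC, TA, goblet cells and enterocytes, where 44.0%, 47.3%, 20.4% and 13.8% of all genes passed. No keratin passed in enteroendocrine cells, where 5.1% of all genes did and 4.01% were called. Of the 9, Krt20 in SC (1.81, adjusted p = 0.0416; 16.5% of all genes called) and Krt20 (1.5, adjusted p = 0.0019) and Krt7 (1.15, adjusted p = 0.0255) in enterocytes (6.87% called) were at least 2-fold. The first was lost without either -VE-organoid replicate (adjusted p of 0.174 and 0.148) and without 4 other libraries, ENR-organoids 1 or 3 and Hyper-organoids 2 or 3 (0.0534 to 0.110). Krt7 in enterocytes was lost without -VE-organoid replicates 1 (0.0934) or 2 (0.0784) or Hyper-organoid replicate 3 (0.100). The pairs under 2-fold were Krt7 in SC (0.45, adjusted p = 0.0016) and TA (0.29, adjusted p = 0.0217), Krt8 in TA (-0.51, adjusted p = 0.0026) and goblet cells (-0.51, adjusted p = 0.0168), Krt19 in TA (-0.73, adjusted p = 0.0006) and Krt23 in goblet cells (-0.62, adjusted p = 0.0312), none of them called, against 17.8% of all genes in TA and 9.87% in goblet cells. Of these, Krt7 in TA was lost without -VE-organoid replicates 1 (0.137) or 2 (0.0618) or Hyper-organoid replicate 3 (0.0524), Krt8 in goblet cells without -VE-organoid replicate 1 (0.138) or Hyper-organoid replicate 2 (0.0541), and Krt23 there without -VE-organoid replicates 1 (0.0708) or 2 (0.217) or Hyper-organoid replicate 2 (0.106).

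In the colon the keratins could be compared only as 1 library against 1, with no test. Intervals are exact Poisson or binomial 95% intervals and cover counting error only, not variation between mice. Krt8 was at 6950 CPM in the normal and 5896 CPM in the DSS library, Krt19 at 3553 and 3029 CPM, Krt18 at 1109 and 872 CPM and Krt20 at 629 and 442 CPM. Their ratios, DSS to normal, were 0.848 for Krt8 (0.842 to 0.854), 0.852 for Krt19, 0.786 for Krt18 and 0.702 for Krt20 (0.685 to 0.719). Krt7 was at 115 and 159 CPM, Krt23 at 5.07 and 8.09 CPM and Krt14 at 2.21 and 3.30 CPM. Krt80 had 4 and 20 UMIs, a ratio of 3.07 (1.03 to 12.4), and 4 and 12 UMIs outside the clusters rich in Ptprc described next, and Krt5 had 0 UMIs in both libraries, where 3 UMIs correspond to 0.151 and 0.0926 CPM.

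With 1 CPM added to both, Krt36 was the 1 member at least 2-fold apart on the log2 (CPM + 1) scale, higher in the DSS library, against 3.55% of 12440 genes that were at least 2-fold higher and 5.08% in either direction. It had 84 UMIs in the normal library, 4.22 CPM (3.37 to 5.22), and 575 UMIs in the DSS library, 17.7 CPM (16.3 to 19.3). That is 4.21-fold (3.34 to 5.35), or 1.84 on the log2 (CPM + 1) scale. In the organoids the same gene had 5 to 36 UMIs a library.

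The deposited annotation divides the colon cells into 25 numbered clusters, of which 6 were rich in Ptprc, the pan-leukocyte antigen (a UMI of it in 50.9% to 95.2% of their cells). These held 219 normal and 445 DSS cells. Of them, cluster 18 was led by stromal genes (Dcn, Col3a1, Sparc) together with Il17a and Il22. Clusters 22 (21 cells, led by the neutrophil genes Camp, Ltf and Ngp) and 23 (13 cells, led by the mast-cell genes Mcpt1, Mcpt2 and Cpa3) fell outside the 6. In Ptprc-rich cluster 0 Krt8 was at 202 CPM in the normal and 461 CPM in the DSS library and in cluster 11 at 166 and 540.1 CPM, with counting intervals apart in both. In cluster 18, with 11 normal and 33 DSS cells, Krt8 was at 392 CPM (242 to 599) and 482 CPM (384 to 597), which overlap, while Krt7 (392 and 69.6 CPM), Krt18 (317 and 69.6 CPM) and Krt19 (746 and 255 CPM) were lower in the DSS library. The 21 Krt7 UMIs of the normal cells of cluster 18 lay in 2 of its 11 normal cells. The source of the keratin UMIs in these clusters was not tested. Krt36 had 4 UMIs in the 6 clusters. Without them Krt36 was at 4.40 and 18.7 CPM and Krt8 at 7235 and 6240 CPM.

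Cluster 4 held 52.5% of all Krt36 UMIs of the colon. It was made up of 230 DSS and 11 normal cells, so cluster and library cannot be told apart, and Krt36 is among the genes that define it, with Nox1, an oxidase of the colonic epithelium, Trf, Ttr and Adh1. Krt36 was at 68.6 CPM (61.5 to 76.3) in its DSS cells. In its normal cells it was at 13.1 CPM (2.71 to 38.3), from 3 UMIs in 1 of 11 cells. Of its DSS cells 33.0% (27.0% to 39.5%) held a Krt36 UMI, at a median of 22497 UMIs a cell, against 0 of 159 DSS cells of Ptprc-rich cluster 0, at 3924 UMIs a cell. After thinning to 5000 UMIs the share in cluster 4 was 19.6% (14.2% to 25.9%), with 36 shallower cells left out.

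Krt36 was also found outside cluster 4. In cluster 10, with 103 DSS and 6 normal cells, it was at 30.2 CPM in the DSS cells (24.0 to 37.4). In cluster 5, which held the goblet-cell markers at 24086 CPM, it was at 5.32 CPM (2.43 to 10.1) in 83 normal and 16.5 CPM (12.5 to 21.4) in 150 DSS cells. In cluster 2, which the annotation names stem, it was at 3.25 CPM (1.40 to 6.41) in normal and 8.17 CPM (5.43 to 11.8) in DSS cells. Of the 7 clusters outside the 6 with at least 10 cells in both libraries, 5 had 3 or more Krt36 UMIs in each library (clusters 1, 2, 4, 5 and 13). The value was higher in the DSS cells in these 5, and the counting intervals were apart in clusters 4 and 5. Those intervals take UMIs as independent, which UMIs of 1 cell are not. By cells, 1 of 11 normal cells of cluster 4 held a Krt36 UMI (9.09%, 0.230% to 41.3%), which overlaps its DSS cells (27.0% to 39.5%). In cluster 5 it was 2 of 83 normal (2.41%, 0.293% to 8.43%) and 21 of 150 DSS cells (14.0%, 8.88% to 20.6%). Clusters 6 and 16 had 0 Krt36 UMIs in the normal and 1 and 2 UMIs in the DSS cells.

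Over the same 7 clusters the other keratins were counted by direction alone. Krt8 was higher in DSS cells in 4 and lower in 3, Krt18 and Krt19 were higher in 3 and lower in 4, Krt20 was higher in 3 and lower in 4, and Krt7 was higher in 5 and lower in 2. Krt23 was higher in 5, lower in 1 and equal in 1, and Krt80, on 0 UMIs in the normal cells of these clusters, was higher in 4 and equal in 3. Krt14 was higher in 3, lower in 3 and equal in 1, and Krt5 was at 0 in all 7. Krt7 and Krt20 were both high in cluster 16, whose leading genes were the hormone-cell genes Chga, Chgb and Tph1. There Krt7 was at 1054 CPM in 16 normal and 1241 CPM in 43 DSS cells, and Krt20 at 1273 and 1227 CPM, with overlapping intervals. Krt20 was at 1323 and 1229 CPM in cluster 6, which held the colonocyte markers at 26052 CPM, and at 17.9 and 28.3 CPM in the stem cluster. It was higher in 2 clusters outside the 7, at 2944 CPM in 93 normal cells of cluster 12 and 1976 CPM in 108 DSS cells of cluster 9. Of all Krt20 UMIs of the colon, clusters 3 and 12, almost only normal cells, held 28.7% and 6.92%. Clusters 9 and 7, almost only DSS cells, held 18.8% and 10.7%. In these clusters cluster and library cannot be told apart.

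**Figure D5:**
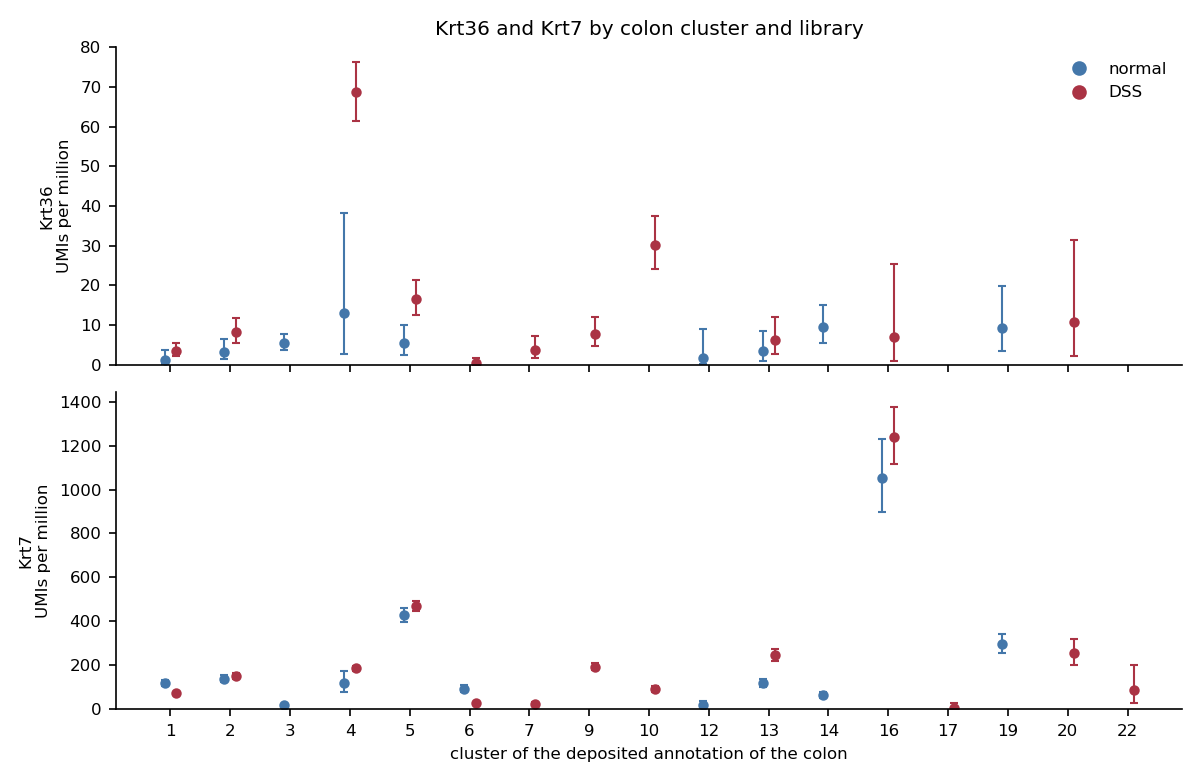
Krt36 (upper panel) and Krt7 (lower panel) as CPM in the numbered colon clusters outside the 6 rich in Ptprc, with 1 normal and 1 DSS library; points are the summed cells of a cluster in 1 library, bars are exact Poisson 95% intervals for counting error, and clusters with no UMI of the gene or under 10 cells in a library are not drawn. Krt36 is at 68.6 in DSS cells of cluster 4 and 30.2 in those of cluster 10, and Krt7 is above 1000 in both libraries in cluster 16.

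Genes that work with keratins were followed in 4 lists, in the organoids, by how many were called. The share of all genes called is the background for each count: 22.9% between Hyper- and ENR-organoids (18.2% higher, 4.75% lower), 18.6% between Hyper- and -VE-organoids and 2.55% between -VE- and ENR-organoids. The list of 23 partners and cytolinkers held desmosome and linker proteins that anchor keratin filaments, and also genes that are neither, such as Trp63 and Bfsp1. Of these 23, 20 were tested, with a median log2 change between Hyper- and ENR-organoids of -0.18 against -0.01 over all genes. Between these groups 2 were called, 1 in each direction. They were Dsc3, a desmosomal cadherin (1.68, adjusted p = 0.0194, at 0.0301 and 0.0959 CPM in ENR- and Hyper-organoids), and Bfsp1, a filament protein of the lens (-2.66, adjusted p = 0.000889, at 3.73 and 0.595 CPM). Between Hyper- and -VE-organoids 0 were called higher and 1 lower, Bfsp1 (-1.62, adjusted p = 0.0170). None of the list was called between -VE- and ENR-organoids.

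Of 13 other intermediate filament genes 12 were tested, 8 were called higher, against 18.2% of all genes, and 0 lower, against 4.75%, with a median log2 change of 1.54. Nes, the nestin of progenitor cells, went from 0.211 to 20.8 CPM (6.59, adjusted p = 2.02e-05), and Des, the desmin of muscle, from 0.00278 to 0.264 CPM (5.92, adjusted p = 0.000359). Between Hyper- and -VE-organoids 6 of the 12 were called higher, against 16.1% of all genes, Des (5.83) and Nes (5.12) among them, and between -VE- and ENR-organoids 0 were, against 1.35%. The means of Des in ENR- and -VE-organoids (0.00278 and 0.00428 CPM) lay under the level of 3 UMIs a library, 0.0176 to 0.0337 CPM. The size of its 2 changes is therefore not exact.

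Of 19 genes of squamous and wound epithelium 15 were tested and 7 were called higher, against 18.2% of all genes, and 0 lower between Hyper- and ENR-organoids, with a median of 0.94. Ly6d, a surface antigen of keratinocytes, went from 0.00398 to 1.66 CPM as means (adjusted p = 0.0101). Without TMM scaling it was at 0.159, 0.253 and 4.82 CPM in Hyper-organoids 1, 2 and 3 and at 1.08 and 0.306 CPM in -VE-organoids 1 and 2, so 1 library carried the Hyper-organoid mean. Anxa1 was the 1 gene of the list called between -VE- and ENR-organoids (3.83, adjusted p = 0.00902; 1.35% of all genes were called higher), and 3 were called higher, against 16.1% of all genes, between Hyper- and -VE-organoids.

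Of 15 regulators of keratin genes, all tested, 2 were called higher and 1 lower between Hyper- and ENR-organoids, against 22.9% of all genes called. Grhl3, a transcription factor of the epidermal barrier, went from 0.0440 to 0.501 CPM (3.43, adjusted p = 9.97e-05), and Tead4, a DNA-binding partner of YAP, from 0.192 to 1.58 CPM (3.02, adjusted p = 4.12e-05). Cdx1, a factor of intestinal identity, went from 163 to 81.3 CPM (adjusted p = 1.58e-05). Grhl3 was called in both other comparisons and Tead4 between Hyper- and -VE-organoids.

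The genes whose level was most like that of a keratin were found by Pearson correlation of log2 (CPM + 1) over the 45 sums of a class in a library, among 8084 genes. They were Hpcal1 (0.97), Atp6v1b2 (0.97) and Cacfd1 (0.95) for Krt7, and Klc4 (0.90), Cdh17 (0.90) and Map2k2 (0.88) for Krt8. For Krt18 they were Galnt12 (0.89), Rab27b (0.87) and Tmed9 (0.85), for Krt19 Tmem253 (0.95), Nfe2l2 (0.95) and Gm3336 (0.95), and for Krt23 Rnf43 (0.80), Tmem171 (0.79) and Pla2g5 (0.77). No keratin was among the 3 genes most like another. The sums share libraries and classes, so the values describe these 45 sums.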

How the data were processed

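Single-cell suspensions of organoids and colonic crypts were profiled with a droplet-based 3′ kit. The authors aligned the reads to mm10 and counted them with Cell Ranger, for which the methods give version 3.0.0 and the matrix headers 3.1.0. The deposited values are raw UMI counts per gene and cell, with an annotation of the 25204 kept cells made with Seurat 3.1.4. The methods state that cells under 1500 genes or over 25% mitochondrial reads were discarded, but the kept cells reach down to 501 genes and up to 20.0% mitochondrial UMIs. No doublet filter is stated in the sources used here, and none was applied. The 252040 member values of the count table were compared with the library matrices, and 0 differed.

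Counts were summed per library, and per class with at least 10 cells. The sums of organoid cells, 8 libraries, entered 1 fit of edgeR 4.0.16 (R 4.3.3; TMM, filterByExpr, quasi-likelihood test, Benjamini-Hochberg adjustment over all genes tested). Class levels and colon levels are plain CPM, and ratios used exact permutation tests over libraries (scipy 1.17.1). Colon libraries, 1 a group, have no test. On simulated counts for Hyper- against ENR-organoids, 94% of genes changed 2-fold passed the adjusted p (15728 genes, all cells). In SC the share was 95% (13799 genes). These shares did not require an estimate of at least 2-fold, as a call does. The simulation gave every gene the same assumed spread and changed only genes above a minimum expected count. The shares depend on both settings, so they do not give the power for a particular keratin. Counts as low as those of Krt36 were not tested separately. Alternatives were RLE factors, DESeq2 1.42.0, other filters, thinned or fewer cells, left-out libraries and a block for replicate number.

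Replicates 1, 2 and 3 are the prefixes that the sample titles share across groups, and no label says that they mark a shared culture. Same-numbered -VE- and Hyper-organoids had the same passage, as did replicate 3 of the ENR- and Hyper-organoids. The ENR-organoids 1 and 2 were at passages 2 and 7, against 1 and 6 in the other groups. Deviations from the group means correlated at 0.268, 0.217 and 0.538 between same-numbered ENR- and Hyper-organoids over 16037 genes. Values for differently numbered libraries were not set beside them, so pairing is not shown. The main test does not pair the libraries. For -VE-organoids, with 2 pairs, the correlations were 0.206 and 0.134 with Hyper-organoids and 0.176 and -0.010 with ENR-organoids. All 10 members are named in each comparison over all cells. Within classes those tested are named for Hyper- against ENR-organoids, and those that passed for the comparisons with -VE-organoids. Of other keratins those with a mean of at least 1 CPM in a group are named, of each list at most 2 genes per direction by the size of the change, and for likeness the 3 most correlated genes. The values of 1 list gene are not reported here. The members and lists were chosen with earlier results of these data known.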

Additional observations from a re-analysis of the deposited data

Results flagged for a closer look

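The change between Hyper- and ENR-organoids differed from that in SC, by the interaction test of edgeR with the library as a block, for 16 pairs of a keratin and a class. The values are differences of log2 fold changes, class minus SC, over 6 libraries (5 for enterocytes). In TA the difference was -0.29 for Krt8, -0.53 for Krt19 and -1.85 for Krt20. In goblet cells it was -0.76 for Krt7, -0.63 for Krt8, -0.80 for Krt18, -0.31 for Krt19, -4.33 for Krt20 and -1.04 for Krt23. In enteroendocrine cells it was -1.02 for Krt7, -0.48 for Krt8, -4.22 for Krt20 and 1.83 for Krt23. In enterocytes it was 0.79 for Krt7, 0.48 for Krt19 and -2.11 for Krt20.

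Leaving out 1 library, an alternative chosen after seeing the data, ended 6 of these 16. Krt20 in TA did not pass without ENR-organoid replicates 1 (adjusted p = 0.0964) or 3 (0.109). Krt19 in goblet cells was lost without ENR-organoid replicates 1 (0.117) or 3 (0.116) and Hyper-organoid replicates 2 (0.109) or 3 (0.109), and Krt23 there without ENR-organoid replicate 3 (0.0556). In enteroendocrine cells Krt8 was lost without ENR-organoid replicates 1 (0.0859) or 3 (0.133) and Hyper-organoid replicates 2 (0.102) or 3 (0.0909), and Krt23 without ENR-organoid replicates 1 (0.128) or 3 (0.0581) and Hyper-organoid replicate 1 (0.0718). Krt19 in enterocytes was lost without ENR-organoid replicate 1 (0.104). The differences for Krt20 in SC rest on 0.232 to 4.05 CPM. That for Krt23 in enteroendocrine cells rests on 7 UMIs in all ENR-organoid libraries together.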

How the results depend on the processing

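With genes of at least 1 CPM in 2 libraries, the genes called were 2195 instead of 3675 between Hyper- and ENR-organoids and 1778 instead of 2985 between Hyper- and -VE-organoids, fewer genes being tested, and 266 instead of 409 between -VE- and ENR-organoids with cells thinned to 10000 UMIs. The keratins that passed between Hyper- and -VE-organoids were 2, against 1 with the 1 CPM filter, 0 with only the 2 groups in the fit and 4 with the replicate block. Within classes the block gave 15 pairs instead of 9 between Hyper- and -VE-organoids and 12 instead of 4 between -VE- and ENR-organoids. With the block, Krt7 (adjusted p = 0.0308) and Krt18 (0.0131) passed between Hyper- and -VE-organoids over all cells, with Krt8 (0.0176) and Krt19 (0.0190) in SC, Krt18 in TA (0.00734) and Krt18 (0.0231), Krt19 (0.00126) and Krt20 (0.0311) in goblet cells, and between -VE- and ENR-organoids Krt7 (0.0212) and Krt18 (0.00425) passed in SC and Krt7 (0.00147), Krt18 (0.00161) and Krt20 (0.00631) in enterocytes, and Krt8, Krt18 and Krt19 in EP. With 2 pairs, the shared number is not shown to pair the -VE-organoids. The cause of these changes was not tested. Leaving out 1 library gave 3384 to 3806, 2218 to 2977 and 96 to 519 genes called for Hyper- against ENR-, Hyper- against -VE- and -VE- against ENR-organoids, with 7 to 8, 0 to 2 and 0 to 4 keratins and, within classes, 13 to 19, 4 to 10 and 0 to 8 pairs. Interactions, for which RLE factors and left-out libraries were added after seeing the data, numbered 11 to 17. The log2 difference of the Krt8 to Krt18 ratio was -1.03 to -0.91 and that of type II to type I keratins -0.17 to -0.12. Where a left-out library leaves 1 -VE-organoid library, that sample is assumed to vary like the other groups.

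No keratin log2 change that passed turned in direction. Of 28 that did not pass (adjusted p of 0.271 or more), the direction turned in 45 cases without 1 library and 9 with the block, none of which passed. Between Hyper- and ENR-organoids the ranges were -0.17 to 0.097 for Krt8 in SC and -0.017 to 0.89 for Krt20 in TA. Between Hyper- and -VE-organoids the ranges were -0.14 to 0.12 for Krt23, -0.041 to 1.13 for Krt80, -0.12 to 0.037 for Krt18 in SC, -0.23 to 0.060 for Krt23 in SC, -0.097 to 0.14 for Krt23 in TA, -0.40 to 0.99 for Krt80 in TA, -0.23 to 0.75 for Krt19 in enteroendocrine cells, -0.16 to 1.67 for Krt23 in enteroendocrine cells, -0.11 to 0.79 for Krt8 in enterocytes, -0.31 to 0.75 for Krt18 in enterocytes and -0.074 to 0.90 for Krt19 in enterocytes. Between -VE- and ENR-organoids the ranges were -0.12 to 0.046 for Krt8, -0.46 to 0.26 for Krt80 in SC, -0.065 to 0.053 for Krt19 in TA, -0.12 to 0.042 for Krt7 in goblet cells, -0.16 to 0.058 for Krt19 in goblet cells, -0.037 to 0.30 for Krt7 in enteroendocrine cells, -0.046 to 0.15 for Krt8 in enteroendocrine cells, -0.37 to 0.60 for Krt19 in enteroendocrine cells, -0.26 to 0.19 for Krt23 in enterocytes, -0.28 to 0.90 for Krt20 in EP, -0.21 to 0.12 for Krt23 in EP and -0.63 to 0.67 for Krt23 in Paneth cells. For the difference from the change in SC they were -0.062 to 0.00042 for Krt7 in TA, -0.011 to 0.36 for Krt23 in TA and -0.079 to 0.13 for Krt18 in enteroendocrine cells. With the replicate block the turned values were between Hyper- and -VE-organoids 0.024 for Krt23 in SC and -0.17 for Krt18 in enterocytes, and between -VE- and ENR-organoids 0.075 for Krt8 over all cells, 0.056 for Krt19 in TA, 0.015 for Krt7 in goblet cells, 0.069 for Krt19 in goblet cells, 0.19 for Krt23 in enterocytes, 0.064 for Krt23 in EP and -0.15 for Krt23 in Paneth cells. In direction and side of the threshold the block left 100 results as they were and brought 22 past it, left-out libraries kept 979, lost 91 and brought 37 past it, and other settings kept 328, lost 6 and brought 7 past it. The 2 others were the colon ratios of Krt8 and Krt19, each -0.21 on the log2 scale without the Ptprc-rich clusters against -0.24 and -0.23. Counts of at most 13 UMIs a library (Krt5, Krt14, and Krt36 in ENR-organoids) limit what can be seen of those genes.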

Other observations

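Of the 43 other keratin genes counted, 8 had no UMI in any library and 6 reached a mean of 1 CPM in some group. Krt10, a keratin of the suprabasal epidermis, was the most abundant of these, at 11.1, 11.8 and 7.51 CPM in ENR-, -VE- and Hyper-organoids and 14.2 and 14.3 CPM in the normal and DSS colon. Krt15, a basal-cell keratin, was at 3.70, 3.95 and 1.42 CPM in the 3 organoid groups and fell by 1.38 on the log2 scale between Hyper- and ENR-organoids (SE 0.23, adjusted p = 0.00132 by edgeR's quasi-likelihood test). Krt87, of the hair family, was at 2.48, 3.47 and 1.13 CPM and fell by 1.13 (SE 0.26, adjusted p = 0.00589). Krt13, a keratin of stratified mucosa, went from 0.139 to 0.297 CPM (1.09, SE 0.24, adjusted p = 0.00505). Krt84 and Krt83, of the hair family like Krt36, were at 1.51 and 1.26 CPM in the normal colon and 3.80 and 1.76 CPM in the DSS colon, and at most 0.0306 CPM as a mean of any organoid group. Of the 13 other keratins tested, 4 were called higher and 2 lower between Hyper- and ENR-organoids, against 18.2% and 4.75% of all genes.

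The class TC, whose abbreviation the sources used here do not spell out, held 17 cells in 4 libraries, all ENR- or -VE-organoids, with a median of 3328 UMIs a cell, and its markers of tuft cells summed to 2814 CPM. Krt18 was at 6483 to 23708 CPM in its cells and Krt8 at 3322 to 10758 CPM, so that Krt18 exceeded Krt8 in each of the 4 libraries. In the colon, cluster 24, 13 cells with tuft markers at 1911 CPM, likewise held more Krt18 (13713 CPM) than Krt8 (7756 CPM). Both sets are too small for a comparison between groups.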
